A study of Mus musculus with 11 samples.

Results

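Lipid droplet and fatty acid uptake genes were followed in the livers of 11 mice as markers of steatosis, the build-up of fat in liver cells. The group held 10 genes: Plin2, Cidec, Cidea, Cideb, Cd36, Pparg, G0s2, Pnpla2, Lpl and Fabp4. Every probe set (a set of short oligonucleotides for one transcript) whose platform symbol was one of these names was taken, which gave 17 of the 22690 probe sets on the array, with at least 1 for each gene. Of these, 11 probe sets for 7 genes passed the filter on dim probe sets, set at a mean signal of 53.0, and Cidec, Cidea and Pparg did not. The 7 genes stood among 7924 genes tested.

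The study asked how a high-fat diet and muscle growth driven by Akt1, a kinase that relays insulin signals, affect the liver transcriptome. Total liver RNA of male mice of a mixed background was labelled with biotin and read on one oligonucleotide array per mouse. Wild-type mice on the normal diet gave 3 arrays, wild-type mice on the high-fat diet 4 arrays, and Akt1 double transgenic mice on the high-fat diet 4 arrays. All groups, the wild-type mice included, had received doxycycline, the drug that switches inducible transgenes, for 3 weeks. Muscle hypertrophy was marked in the transgenic mice only. The promoter and cell type that drive the transgene and the age of the mice were not given in the sources used here. No transgenic mice on the normal diet were analysed here, so in transgenic against normal-diet wild-type mice diet and genotype cannot be told apart. The comparisons also shared arrays. Wild-type mice on the high-fat diet entered the first 2, and wild-type mice on the normal diet the first and the third. The transgenic mice entered the last 2, so these are no independent results.

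Surplus fatty acids in a hepatocyte are esterified to triglyceride and stored in cytosolic droplets with a coat of perilipins. CIDE proteins enlarge these droplets by letting them exchange and fuse, and lipases on their surface release the fatty acids again. Fatty acids enter from the blood through carriers such as CD36, and PPARG, a nuclear receptor typical of fat tissue, switches on droplet and uptake genes when it appears in a fatty liver.

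Promoters are shown for Cd36 and Plin2, chosen after their values were seen. They were the 2 members past the filter with their highest signal of all arrays on transgenic array 3. Most PPARA targets were highest on that array as well. The windows hold the 250 bases before the annotated start (RefSeq, GRCm38.p6), and capitals mark AGGTCA, the short core motif of nuclear receptors of the PPAR kind, here on the other strand (TGACCT). Cd36 lies on chr5:17835897-17836146 (minus strand), with the match 228 to 223 bases before the start, and Plin2 on chr4:86670060-86670309 (minus strand), with the match 218 to 213 bases before the start.
Cd36: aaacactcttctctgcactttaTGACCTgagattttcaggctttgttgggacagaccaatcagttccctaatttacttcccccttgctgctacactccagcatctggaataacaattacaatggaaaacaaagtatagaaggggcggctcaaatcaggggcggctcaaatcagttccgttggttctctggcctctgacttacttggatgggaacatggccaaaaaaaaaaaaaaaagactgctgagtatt
Plin2: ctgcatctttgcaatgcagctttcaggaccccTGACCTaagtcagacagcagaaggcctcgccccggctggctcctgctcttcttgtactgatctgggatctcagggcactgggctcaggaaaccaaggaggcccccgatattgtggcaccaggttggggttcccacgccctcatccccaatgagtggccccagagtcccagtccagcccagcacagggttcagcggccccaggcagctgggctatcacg
The RefSeq table held 10 such windows for 7 of the 10 genes, and 4 windows (Cd36, Plin2 and both of Pparg) held AGGTCA on either strand. Of all 32851 windows of that length, 14% held it. The direct repeat of that motif with 1 base between the copies, searched on both strands, was in 0 of the 10 windows and in 0.0335% of all. A match of letters is a description and does not show that a receptor binds there.

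Signals were linear MAS5 values scaled to a trimmed mean of 500.3 on every array, with medians of 97.2 to 118.4. They carry no transcript length, so levels are compared between mice and not between genes, and the number of arrays limits the precision. The tests measured the spread between these mice. Transgenic array 3 stood apart: its poly-A spike controls averaged 92.1 (231.1 to 371.6 on the other 10), its Gapdh 3'/5' ratio was 0.823 (0.669 to 0.768) and its mean Spearman correlation with other arrays was the lowest, 0.94. Transgenic arrays 3 and 4 had the highest top signals, 42425.5 and 43272.9. The 13 measured hepatocyte markers were all past the filter, and their summed signal was 232747 to 268737 on the normal diet, 266437 to 296747 in high-fat wild-type mice and 271834 to 377298 in transgenic mice. In whole liver, fewer cells of a type and less RNA per cell cannot be told apart.

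Cd36 had the largest diet difference of the 7 tested genes. On the brightest probe set of each gene, Cideb was the only one of them with no overlap between the diets. On the high-fat diet, Cd36 averaged 3.76-fold the normal-diet level and Cideb 1.23-fold. By limma with Benjamini-Hochberg adjustment over 7924 genes, 0 of the 7 passed 0.05 for diet, where 0% of all genes passed. At an unadjusted p under 0.05 there were 2 (Cd36 and Cideb), against 7.02% of all genes. In transgenic against wild-type mice on the high-fat diet 0 of 7 passed (0.366% of all genes), with 0 at an unadjusted p under 0.05 (13.7% of all genes). In transgenic mice against the normal diet 0 of 7 passed (2.08% of all genes), with 1 at an unadjusted p under 0.05, Cd36 (18.3% of all genes). The dim genes were read from a fit over all 20380 probe sets of 1 symbol, which called 0 of the 17 probe sets in each comparison, where 0%, 0.108% and 0.986% of probe sets passed. The median log2 difference over the 7 genes was 0.295 for diet, 0.227 for transgenic against wild type and 0.437 against the normal diet, beside 0.007, 0.001 and 0.004 over all genes tested. A median of 7 genes can lie off 0 through a few of them. These medians were not tested and are descriptions.

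**Figure D1:**
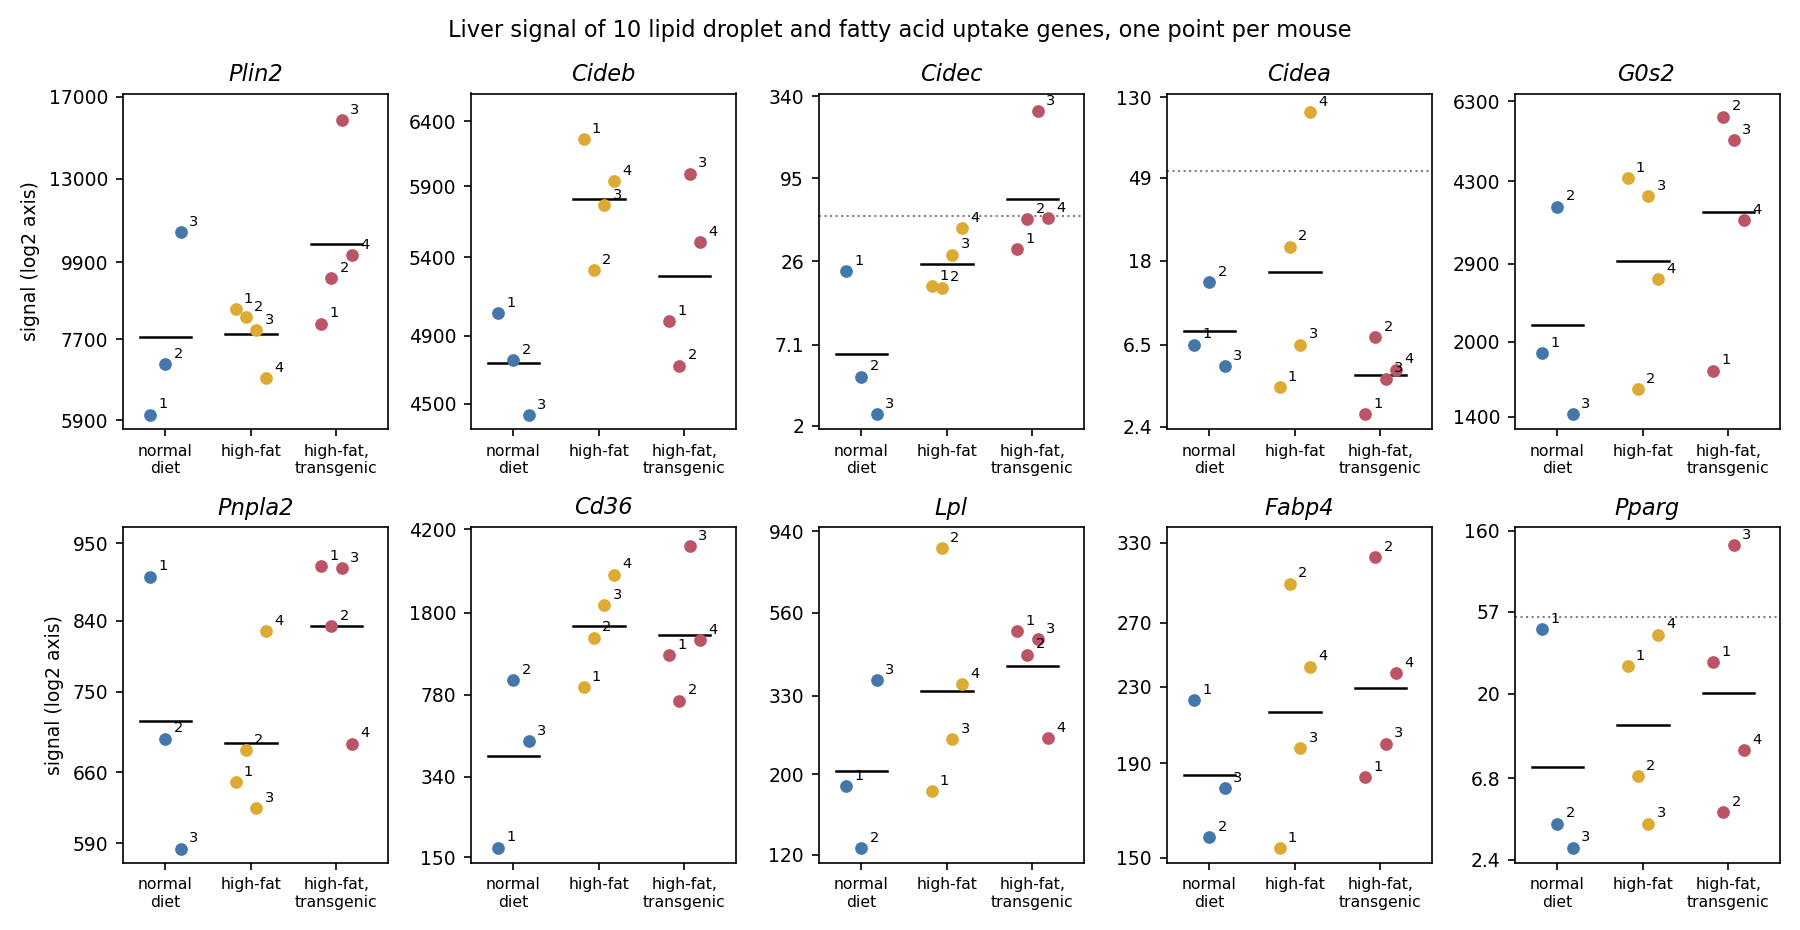
Signal of each gene (brightest probe set, log scale) in the 3 groups, 1 point per mouse with its number, a black bar at the mean of the log2 values and a dotted line at the dim limit of 53.0. Cidec, Cidea and Pparg lie mostly under the dotted line, and mouse 3 of the transgenic group is the top point for Plin2, Cidec, Cd36 and Pparg.

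Plin2 encodes perilipin 2, the main coat protein of droplets in hepatocytes. Its signal on the normal diet was 6014.4, 7093.9 and 10932.8 in mice 1 to 3. Wild-type mice on the high-fat diet gave 8488.3, 8268.2, 7934.2 and 6770.3, and transgenic mice 8099.8, 9404.1, 15749.5 and 10123.2. The highest normal-diet mouse lay above every wild-type mouse on the high-fat diet, and only transgenic mouse 3 lay above it. Group means were 8013.7 ± 2585.0 (SD, n = 3), 7865.2 ± 764.7 (n = 4) and 10844.2 ± 3375.8 (n = 4). The diet difference was 0.01 ± 0.23 (SE) in log2, with a 95% interval of -0.48 to 0.51, so a rise of about 1.42-fold lies at its upper limit. Transgenic mice differed from wild-type mice on the high-fat diet by 0.42 ± 0.21 (interval -0.04 to 0.88, limma adjusted p = 0.407), and by 0.23 without transgenic array 3. Against the normal diet their difference was 0.44 ± 0.23 (limma adjusted p = 0.333).

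Cideb encodes the CIDE protein of hepatocytes, which also serves the lipidation of very-low-density lipoprotein. Mice 1 to 3 on the normal diet had signals of 5037.7, 4752.2 and 4435.9. On the high-fat diet wild-type mice had 6259.9, 5317.8, 5764.1 and 5937.1, and transgenic mice 4990.2, 4720.0, 5993.9 and 5504.9. Every wild-type mouse on the high-fat diet was above every mouse on the normal diet, and the transgenic mice overlapped with both groups. Genes with such a gap upward made up 4.58% of all genes tested, so 1 of 7 members with it is a description. The diet difference was 0.29 ± 0.10 in log2 (interval 0.07 to 0.52, limma adjusted p = 0.658), and it ranged from 0.25 to 0.34 over the alternatives. The transgenic difference on the high-fat diet was -0.14 ± 0.10 (limma adjusted p = 0.556).

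Cidec, also known as Fsp27, makes large single droplets in fat cells and is low in lean liver. Its only probe set was dim on 10 of the 11 arrays, with 22.3, 4.3 and 2.4 on the normal diet. Wild-type mice on the high-fat diet gave 17.7, 17.2, 28.8 and 43.6, and transgenic mice 31.5, 50.3, 269.6 and 51.2. All 4 transgenic mice were above all 3 normal-diet mice, a gap that 7.47% of all probe sets of 1 symbol showed upward. In the fit over all probe sets the transgenic mice differed from the normal diet by 3.48 ± 0.85 in log2 (interval 1.65 to 5.31), the smallest adjusted p of the members (limma adjusted p = 0.0802). This was 2.82 without transgenic array 3 (adjusted p = 0.147), 2.80 without normal-diet mouse 3 (0.245) and 4.41 without normal-diet mouse 1 (0.0507, the lowest over all alternatives). Since the normal-diet signals were near the floor, the size depends on the scale: with log2(signal + 32) the difference was 1.39. The diet difference was 2.02 ± 0.85 (limma adjusted p = 0.804), with 2.95 without normal-diet mouse 1, 1.34 without normal-diet mouse 3 and 0.51 with log2(signal + 32). The transgenic difference on the high-fat diet was 1.46 ± 0.79 (limma adjusted p = 0.536), and 0.80 without array 3.

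Cidea, the CIDE protein of brown fat, was dim on every array but 1. Wild-type mouse 4 on the high-fat diet had 109.1, and the other 10 arrays lay between 2.8 and 21.3. The 4 transgenic mice had 2.8, 7.1, 4.3 and 4.8, inside the range of the normal-diet mice or just under it (6.5, 13.9 and 5.0). Transgenic minus wild-type mice on that diet gave -1.79 ± 0.92 in log2 (limma adjusted p = 0.51), which was -0.86 without wild-type mouse 4, -2.46 without wild-type mouse 1 and -0.63 with log2(signal + 32). A value this close to background gives no level.

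Pnpla2 encodes adipose triglyceride lipase, which takes the first fatty acid off stored triglyceride. Its bright probe set read 900.6, 696.3 and 584.8 on the normal diet, 650.3, 684.2, 623.9 and 825.9 in wild-type mice on the high-fat diet, and 916.2, 833.0, 912.5 and 690.8 in transgenic mice. The 3 groups overlapped, with 3 of the 4 transgenic mice above every wild-type mouse on the same diet. In log2 the diet difference was -0.05 ± 0.16 (interval -0.40 to 0.31), and the transgenic difference was 0.27 ± 0.15 (interval -0.06 to 0.60, limma adjusted p = 0.462). A second probe set was dim, at 1.3 to 24.8, and correlated with the first at r = 0.189 over the 11 arrays.

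G0s2 encodes an inhibitor of that lipase. Normal-diet mice had 1896.3, 3808.4 and 1415.6, wild-type mice on the high-fat diet 4369.7, 1598.4, 4005.0 and 2696.8, and transgenic mice 1744.8, 5850.2, 5238.5 and 3578.5. Each group held a low mouse (1415.6, 1598.4 and 1744.8), and its highest mouse was 2.69, 2.73 and 3.35 times its lowest, a wider spread than the differences between group means. Those differences were 0.44 ± 0.46 for diet and 0.34 ± 0.43 for the transgenic mice (interval -0.59 to 1.26).

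Cd36 encodes a membrane protein that carries long-chain fatty acids into cells and is known to rise in fatty liver. Its brightest probe set (1450883_a_at) read 165.2, 904.0 and 486.4 on the normal diet. Wild-type mice on the high-fat diet gave 845.3, 1397.0, 1938.1 and 2647.0, and transgenic mice 1172.7, 736.9, 3543.5 and 1362.7. Normal-diet mouse 2 lay just above the lowest wild-type mouse on the high-fat diet, and otherwise the diets were apart. Means were 518.5 ± 370.4 (SD, n = 3), 1706.8 ± 769.3 (n = 4) and 1704.0 ± 1254.0 (n = 4).

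The diet difference of Cd36 was 1.91 ± 0.60 in log2 (interval 0.61 to 3.22, limma adjusted p = 0.606). Normal-diet mouse 1 was the lowest of all arrays on the 3 probe sets, and without it the difference was 1.24. The other probe sets for Cd36 separated the diets: 1423166_at read 116.0 to 458.4 against 508.7 to 1673.7, and 1450884_at read 34.0 to 85.0 against 91.6 to 194.6. Such a gap upward was found in 3.71% of all probe sets. These probe sets measure one transcript pool in the same RNA (r = 0.959 to 0.993 over 11 arrays) and are no independent evidence. Transgenic and wild-type mice on the high-fat diet differed by -0.13 ± 0.55, with an interval of -1.34 to 1.07, or 0.394- to 2.1-fold. The sign of this difference turned when single arrays were left out, from -0.57 without transgenic array 3 to 0.18 without transgenic array 2. Against the normal diet the transgenic difference was 1.78 ± 0.60 (interval 0.47 to 3.08, limma adjusted p = 0.148). It was 1.34 without array 3, 1.11 without normal-diet mouse 1 (adjusted p = 0.347) and 2.33 without normal-diet mouse 2.

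**Figure D2:**
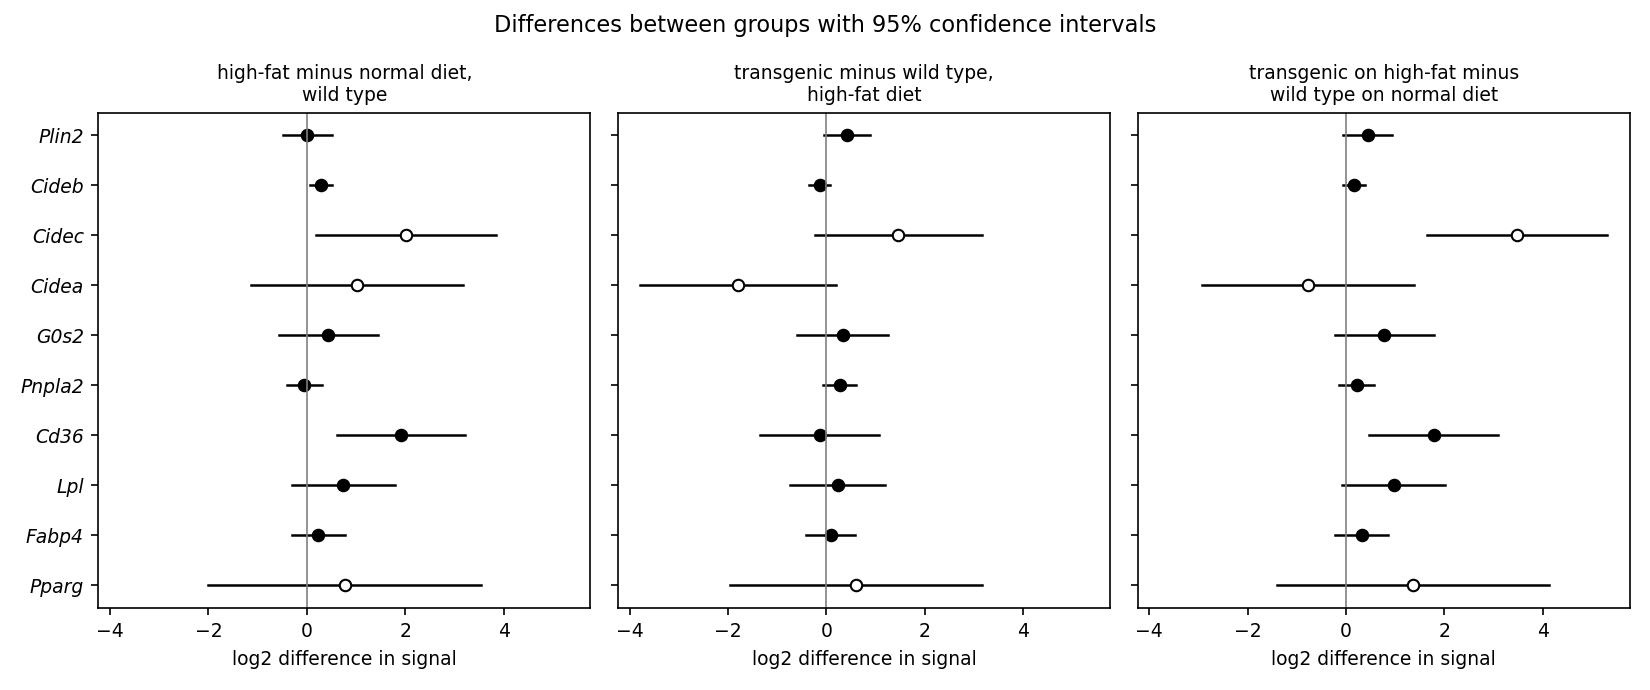
Log2 differences with 95% intervals for the 10 genes in the 3 comparisons, with filled points for the 7 genes tested and open points for the 3 dim genes from the fit over all probe sets. For diet, the intervals of Cd36, Cideb and Cidec lie above 0 before adjustment; for transgenic against wild-type mice on the high-fat diet every interval crosses 0.

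Lpl encodes lipoprotein lipase, which frees fatty acids from circulating lipoproteins and is made in adult liver mainly outside the hepatocytes. Signals were 185.6, 125.3 and 363.6 on the normal diet, 179.5, 844.4, 250.7 and 355.8 in wild-type mice on the high-fat diet, and 497.0, 428.6, 473.0 and 252.0 in transgenic mice. Wild-type mouse 2 on the high-fat diet was the highest of the 11, and 3 of 4 transgenic mice lay above all normal-diet mice. The diet difference was 0.74 ± 0.48 (limma adjusted p = 0.807), and 0.31 without wild-type mouse 2. On its second probe set Lpl read 245.3, 182.2, 165.7 and 45.9 in transgenic mice and 35.6, 241.3, 39.8 and 49.8 in wild-type mice on that diet, a difference of 1.08 ± 0.62 (limma adjusted p = 0.57), against 0.23 ± 0.45 on the first.

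Fabp4 encodes the fatty acid binding protein of fat cells and macrophages. The brightest of its 4 probe sets read 222.7, 158.0 and 178.4 on the normal diet, 153.6, 298.0, 197.2 and 242.1 in wild-type mice on the high-fat diet, and 183.6, 318.3, 199.6 and 237.9 in transgenic mice. The groups overlapped widely, with differences of 0.23 ± 0.25 for diet and 0.09 ± 0.23 for the transgenic mice (interval -0.41 to 0.58). The second bright probe set followed it (r = 0.863), and the dim pair did not (r = 0.08 and -0.2).

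Pparg itself was dim on all arrays but 1. It read 45.7, 3.8 and 2.8 on the normal diet, 28.3, 7.0, 3.8 and 42.4 in wild-type mice on the high-fat diet, and 29.8, 4.4, 132.9 and 9.7 in transgenic mice. The standard errors of its differences, 1.28 for diet and 1.19 for transgenic against wild type, exceeded the differences of 0.77 and 0.60, and without transgenic array 3 the latter was -0.30. Of 14 adipocyte genes that PPARG switches on, 10 had a probe set and 5 passed the filter. By limma, 0 of the 5 were called in each of the 3 comparisons (0%, 0.366% and 2.08% of all genes). At an unadjusted p under 0.05 there were 0, 1 and 1, against 7.02%, 13.7% and 18.3% of all genes.

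Transgenic array 3 was the highest of all 11 arrays for 4 of the 10 genes, Plin2, Cidec, Cd36 and Pparg. It was the highest of the 4 transgenic arrays on 9 of the 17 probe sets and for 5 of the 10 genes. These counts include dim genes and repeat probe sets. Of the 7 tested genes, only Plin2 and Cd36 were highest of all arrays on it, where 13.1% of the 7924 genes were. Among the 4 transgenic arrays, Plin2, Cideb and Cd36 of the 7 were highest on it, where 25.7% of the 7924 genes were. It is also the array with the low poly-A spikes and the highest Gapdh 3'/5' ratio. Its hepatocyte marker sum was 375511.9, near the 377298.0 of transgenic array 4 and above the 232747.1 to 296747.1 of the other 9. The targets of PPARA, the fatty acid sensor of hepatocytes, were high there too. Of 21 measured targets 19 had their highest signal of all arrays on it, where 13.1% of the 7924 genes did, and the summed signal of the list was 204726.3 against 108021.9 to 149725.6 on the other 10. Ppara itself read 5984.7 on that array and 4011.2 to 5504.8 on the others. The part of this array in the differences of the transgenic mice was not tested beyond the values without it: Plin2 0.23, Cidec 0.80, Cd36 -0.57 and Pparg -0.30 against wild-type mice on the high-fat diet, all at a limma adjusted p of 0.65 or more.

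**Figure D3:**
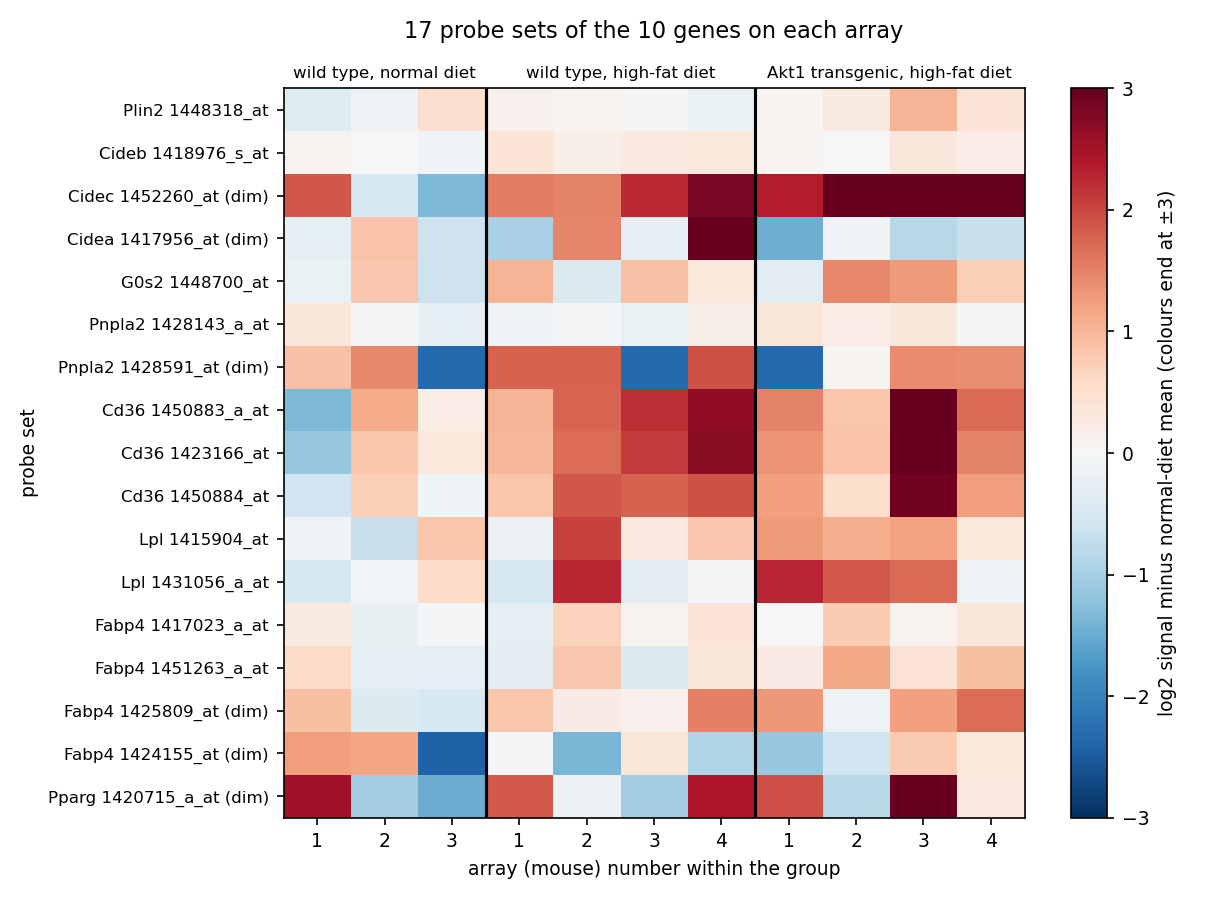
Log2 signal of the 17 probe sets on each of the 11 arrays minus the mean log2 signal of the probe set on the 3 normal-diet arrays, red above and blue below it, with colours ending at -3 and 3. All 8 high-fat diet arrays are red on the 3 Cd36 probe sets, with transgenic array 3 the darkest, and Plin2, Cideb and the bright Pnpla2 probe set are pale on most arrays.

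Marker genes of other liver cells moved with some of these values. The Kupffer cell and macrophage list had 19 of its 20 genes on the array, 15 past the filter, and a summed signal of 4948 to 8376 on the normal diet, 6140 to 15013 in high-fat wild-type mice and 7625 to 19459 in transgenic mice. In each group the array with the highest sum (normal-diet mouse 1 with 8375.6, wild-type high-fat mouse 2 with 15012.8 and transgenic mouse 2 with 19458.8) also had the group's highest Fabp4 signal and its lowest summed signal of PPARA targets (121821.3, 108021.9 and 110033.1). Wild-type mouse 2 was also the highest in Lpl. The same 3 arrays had the highest sums of their groups for stellate cell markers (7187.6, 11909.9 and 8183.4), with transgenic mouse 1 close at 8138.3. They were also highest for neutrophil markers (343.2, 466.4 and 2006.2). Only 2 of the 11 measured neutrophil markers passed the filter, and Prtn3 alone gave 1417.8 of the 2006.2. Endothelial marker sums were highest on normal-diet mouse 1 (8049.8), wild-type high-fat mouse 1 (7325.6) and transgenic mouse 1 (8836.5). The match with Fabp4 was thus not seen for the macrophage list alone, nor for every list. The part of any of these cell types in the Fabp4 and Lpl values was not tested. By limma, 0 of the 15 macrophage genes were called for diet (0% of all genes) and 0 for transgenic against wild type (0.366%). At an unadjusted p under 0.05 there were 3 and 0, against 7.02% and 13.7% of all genes. Called higher in transgenic mice than on the normal diet were 2, Cd5l and Folr2, where 2.08% of all genes were called. In that last comparison 11 of the 15 had an unadjusted p under 0.05 (18.3% of all genes), and 7 were higher without overlap (8.46% of all genes).

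**Figure D4:**
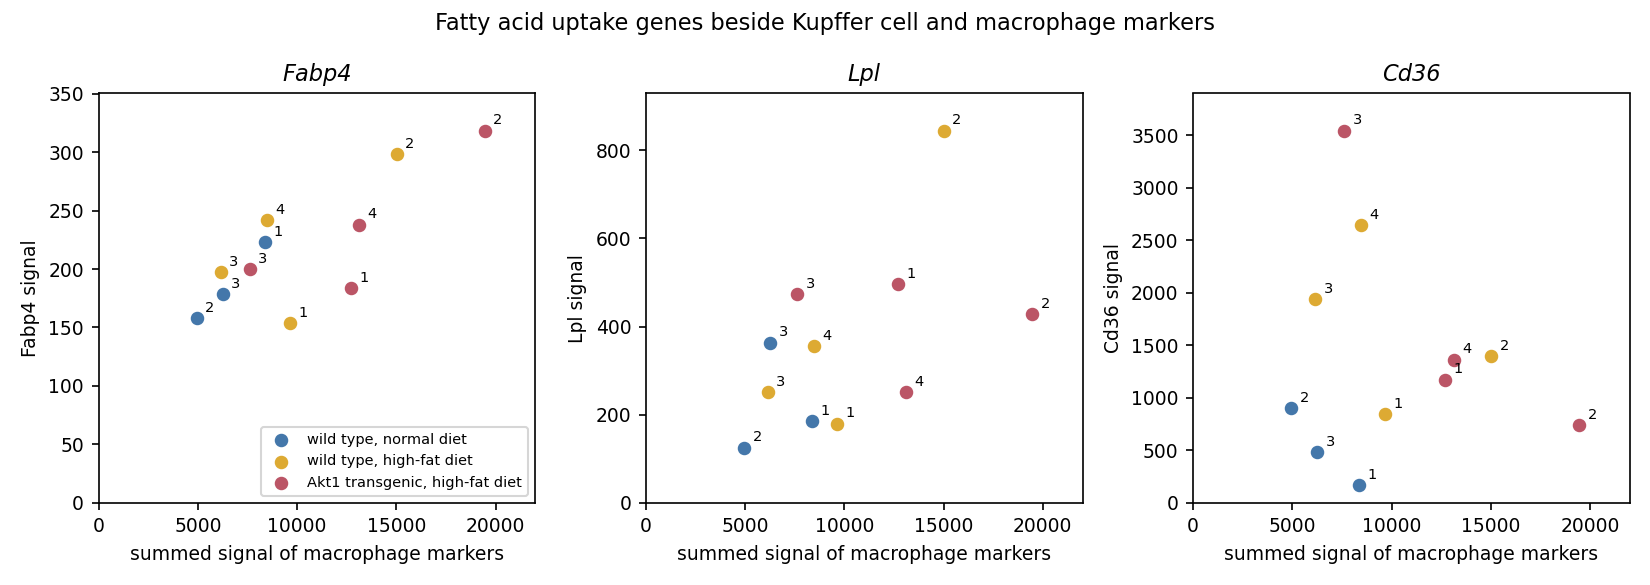
Signal of the uptake genes against the summed signal of the macrophage markers, 1 point per array and a colour per group, both axes linear. For Fabp4, the highest array of each group is also the one with the highest macrophage sum, and with the highest stellate cell and neutrophil sums (not drawn). Cd36 has its highest array, at 3543.5, at a macrophage sum of 7624.9.

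Of 9 adipocyte markers 6 were on the array. Adipoq (adiponectin), Lep (leptin), Retn (resistin) and Ucp1 did not pass the filter. Over all arrays Adipoq read 1.0 to 36.1, Lep 1.1 to 8.6 and Ucp1 1.4 to 8.6. Retn read 4.5 to 62.8, above the dim limit of 53.0 only on normal-diet mouse 1 (62.8) and transgenic mouse 2 (56.4). Among wild-type mice on the high-fat diet Retn was lowest on mouse 2 (4.5), the highest of them in Fabp4. Lipe (hormone-sensitive lipase) and Slc2a4 (the insulin-responsive glucose carrier), which other tissues also express, passed the filter, at 178.1 to 405.1 and 10.4 to 180.2. The summed signal of the list, most of it from Lipe and Slc2a4, was 229 to 580, 383 to 571 and 350 to 489 in the 3 groups. It was highest on normal-diet mouse 1 (580.4) and transgenic mouse 2 (489.3), the highest in Fabp4 of their groups. In wild-type mice on the high-fat diet it was highest on mouse 4 (571.0), which was not the highest in Fabp4. The part of fat cells in the Fabp4 values was not tested.

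The rest of the pathway was read from lists of other genes. For diet, 0 of 15 other droplet genes, 0 of 12 lipolysis genes, 0 of 20 uptake and binding genes and 0 of 20 regulators were called by limma (0% of all genes). At an unadjusted p under 0.05 there were 0, 0, 3 and 0, against 7.02% of all genes. The 3 were Fabp7, Fabp2 and Lrp1. Fabp2, the intestinal fatty acid binding protein, read 2466.9, 4098.4 and 3716.6 on the normal diet and 4991.0, 4234.2, 4979.5 and 4855.4 in wild-type mice on the high-fat diet, with no overlap. Its difference was 0.51 ± 0.21 in log2 (limma adjusted p = 0.678). Lrp1, a receptor that takes up lipoprotein remnants, differed by 0.25 ± 0.11 without overlap (limma adjusted p = 0.692), and Fabp7, the brain fatty acid binding protein, by 1.22 ± 0.46 with overlap (adjusted p = 0.67). A gap upward without overlap was found for 3 of the 20 uptake and binding genes and for 4.58% of all genes tested. The 3 were Fabp2, Lrp1 and Got2. Got2 read 9066.4 to 9427.1 on the normal diet and 9826.5 to 11366.8 in wild-type mice on the high-fat diet. Fabp2, Lrp1 and Fabp7 were named for their small p, and the gaps are descriptions.

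In transgenic against wild-type mice on the high-fat diet the same lists held 1 limma call, Ces1d (0.366% of all genes were called). So they did against the normal diet (2.08% of all genes). At an unadjusted p under 0.05 there were 1, 4, 4 and 3 of the 15, 12, 20 and 20 genes in the former, against 13.7% of all genes. In the latter there were 3, 6, 3 and 4, against 18.3% of all genes. Ces1d is a carboxylesterase that hydrolyses triglyceride in the hepatocyte. It read 6499.8, 6569.3, 7164.9 and 8086.6 in transgenic mice, under the 14129.0, 9004.5, 14058.7 and 13178.6 of wild-type mice on that diet. Normal-diet mice gave 13417.7, 13527.2 and 12277.1, so all transgenic mice were under all wild-type mice, a gap downward from the high-fat group that 4.09% of all genes tested showed. The differences were -0.81 ± 0.14 (limma adjusted p = 0.0398) on the high-fat diet and -0.89 ± 0.15 (adjusted p = 0.0157) against the normal diet. On the high-fat diet the call was lost without any 1 array except wild-type mouse 2, and it held in 8 of 19 alternatives, with adjusted p from 0.00499 to 0.16 and a difference between -0.97 and -0.75. Against the normal diet it was lost without normal-diet mouse 1 (adjusted p = 0.051), without normal-diet mouse 2 (0.0565) and without transgenic arrays 3 and 4 together (0.0574), and it held in 15 of 18 alternatives.

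The neighbouring carboxylesterase Ces1g had a similar sign, with -0.86 ± 0.24 (limma adjusted p = 0.138). Its probe set read 2961.5, 1801.2, 2555.8 and 2180.6 in transgenic mice and 5179.0, 2405.9, 5703.2 and 4542.2 in wild-type mice on the high-fat diet, overlapping through wild-type mouse 2. These paralogs are close in sequence, so probes may read both. Angptl4, a secreted inhibitor of lipoprotein lipase, read 2264.8, 2225.3, 2926.6 and 2398.1 in transgenic mice, above the 2135.9, 1141.8, 1628.6 and 1356.1 of wild-type mice on that diet. Its difference was 0.68 ± 0.19 without overlap (limma adjusted p = 0.155), where 4.32% of all genes showed such a gap upward, but normal-diet mice (2525.3, 1708.7 and 1654.6) overlapped with the transgenic mice.

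The 7 bright genes did not share one pattern over the 11 arrays. Pairwise Pearson correlations of log2 signal ran from -0.307 (G0s2 and Lpl) to 0.597 (Lpl and Fabp4), with 0.592 for Cideb and Cd36 and 0.437 for Plin2 and Cd36. The genes most like each member, by Pearson r of log2 signal over the 11 arrays, were Psma1 for Plin2 (0.977, and 0.948 without transgenic array 3), Got2 for Cideb (0.945) and Brap for Pnpla2 (0.934). For G0s2 it was Manba (0.904), for Cd36 Fabp2 (0.883), for Lpl Rgs2 (0.869) and for Fabp4 Ly86 (0.889). The second most alike were 2010003K11Rik for Plin2 (0.93), Abat for Cideb (0.938), Eya3 for Pnpla2 (0.913), Zfp810 for G0s2 (0.88), Pmpcb for Cd36 (0.875), Kdm5b for Lpl (0.844) and Nckap1l for Fabp4 (0.886). Each is the highest of 7924 genes over only 11 arrays, which share the scaling and whatever differs in RNA quality, so these values are descriptions.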

How the data were processed

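The authors deposited linear intensity values (signal) made with MAS5 (version not given) per the submitters' processing notes, and detection calls were not used. In one table of 11 arrays, 1386 values under 1 were set to 1 before log2. Of the 22690 probe sets, 20380 had 1 symbol, 691 several, 1555 none and 64 were controls; 20351 were found by Entrez identifier in RefSeq (GRCm38.p6), and 0 symbols changed. The lowest 40% by mean log2 signal were left out, and the brightest probe set stood for each gene (7924 genes). Differences were tested two-sided with limma 3.58.1 in R 4.3.3 (lmFit, eBayes with an intensity trend, all arrays, Benjamini-Hochberg adjusted p under 0.05), with ± as its standard error unless SD is named. Dim members came from the same fit over all probe sets of 1 symbol. The scripts were tested on simulated data.

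The members, lists and tests were chosen with earlier results of these data known. Named besides the members were pathway genes past the threshold, otherwise the 3 of smallest p for the first 2 comparisons, and the 2 genes most alike. Settings tried were no filter or a 60% filter, quantile normalization, an offset of 32 before log2, every bright probe set, robust eBayes, eBayes with no trend, weighting arrays, fitting the compared groups alone, blocking on the replicate number, and omitting each array; leaving out transgenic arrays 3 and 4 was added after seeing the data.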

Additional observations from a re-analysis of the deposited data

Results flagged for a closer look

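Within groups of 4 arrays, 6 of 34 probe set and group pairs held an array whose gap to the next was a larger share of the group's range than Dixon's 95% limit allows. On the log2 scale 2 of the 34 pairs did. Chance flags about 1 in 20 groups of independent, normally distributed values. Linear signals were not shown to be such values, and some probe sets read the same gene, so the count of 6 is a description. Transgenic array 3 was the high one for Cidec (269.6) and for the Cd36 probe sets 1423166_at (2314.4) and 1450884_at (385.5). Wild-type mouse 4 on the high-fat diet was high for Cidea (109.1), and wild-type mouse 2 for the second Lpl probe set (241.3). Wild-type mouse 3 was low for the dim second Pnpla2 probe set (1.3), as were 1 normal-diet and 1 transgenic mouse at the same signal.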

How the results depend on the processing

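In each alternative 0 members were called by limma in each comparison. The replicate numbers were not shown to pair mice (correlation of same-numbered deviations -0.0721 to 0.292), and with them as a block 2 genes were called for diet (0 without), 31 for transgenic against wild type on the high-fat diet (29 without) and 139 against the normal diet (165 without). Array weights called 1 gene for diet, and leaving out single arrays 0 to 2. For transgenic against wild type, 12 genes were called with no filter, 48 with all probe sets, 0 with eBayes without trend, 58 with array weights, 8 with only the groups compared, 4 without transgenic arrays 3 and 4, and 0 to 64 without single arrays. Against the normal diet 81 were called without trend, 104 with only the groups compared, 23 without transgenic arrays 3 and 4, and 36 to 162 without single arrays. Of the other pathway genes, 1 in each of these comparisons, the count for transgenic against wild type was 2 with all probe sets, 0 with no filter, without trend, with only the groups compared or without transgenic arrays 3 and 4, and 0 to 2 without single arrays. Against the normal diet it was 2 with all probe sets or only the groups compared, 0 without transgenic arrays 3 and 4, and 0 to 2 without single arrays.

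Some signs turned, each for a difference that was not called. For diet these were Plin2 (-0.0026 after quantile normalization, -0.17 to 0.26 without single arrays), Pnpla2 (-0.19 to 0.12), Ces1d (-0.14 to 0.08) and Ces1g (0.00057 with array weights, -0.25 to 0.16). For transgenic against wild type they were Cd36 (-0.57 to 0.18), Fabp4 (-0.08 to 0.24), Lpl (-0.08 to 0.66), Lrp1 (-0.02 to 0.07) and Pparg (-0.22 without transgenic arrays 3 and 4, -0.30 to 1.34 without single arrays). The cause was not tested. Signals of Cidec, Cidea and Pparg lay near background, which limits their differences most.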
